A study of Mus musculus with 10 samples.

Results

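The 10 genes described here encode the proteins that control passage through the G1 phase of the cell cycle: the D cyclins Ccnd1, Ccnd2 and Ccnd3, the E cyclins Ccne1 and Ccne2, the D cyclin partners Cdk4 and Cdk6, and the CDK inhibitors Cdkn1b, Cdkn1c and Cdkn2c. They were chosen by gene symbol, and each matched 1 row of the 55291 genes in the deposited matrix. All 10 passed the filter on low counts that left 17015 genes for testing. RNA was sequenced from 10 mouse livers in 4 groups, with 2 livers in each vehicle group (NTC-Veh and sgBap1-Veh) and 3 livers in each group given the toxin (NTC-CCl4 and sgBap1-CCl4).

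All mice were females of 16 to 20 weeks that carried the Cas9 Lox-Stop-Lox allele, and all received an AAV8 vector with a U6-driven guide RNA and Cre under the hepatocyte promoter TBG. The NTC groups received a non-targeting guide and the sgBap1 groups a guide against Bap1, which encodes a nuclear deubiquitinase. On day 10 the mice were injected with carbon tetrachloride (CCl4), a toxin that kills hepatocytes around the central veins and sets off regeneration, mixed 1:9 with olive oil and given at 10 µL/g, or with olive oil alone (Veh). Livers were taken 48 h later, and RNA came from the whole right lobe. Cre was thus restricted to hepatocytes, whereas the RNA came from every cell type, so fewer cells of a type and less RNA per cell cannot be told apart.

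In resting liver most hepatocytes sit outside the cell cycle. Growth signals raise the D cyclins, which bind Cdk4 or Cdk6 and begin to phosphorylate the retinoblastoma protein family; this releases E2F transcription factors, whose targets include the E cyclins, and cyclin E with Cdk2 completes the step into S phase. Cdkn2c (p18) binds Cdk4 and Cdk6 and keeps D cyclins away from them, while Cdkn1b (p27) and Cdkn1c (p57) bind cyclin-CDK complexes, chiefly those of Cdk2. Ccnd1 is the D cyclin best known for its rise in regenerating liver.

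Total estimated counts ran from 33050000 to 52200000 per liver, and 3 counts equalled 0.0511 to 0.112 CPM (counts per 1000000 counts of the liver, after TMM scaling). Bap1 itself measured 34.8 and 34.8 CPM in the NTC-Veh livers and 17.5 and 19.5 CPM in the sgBap1-Veh livers. With CCl4 it measured 30.1, 31.5 and 29.5 CPM in NTC and 17.0, 21.8 and 19.1 CPM in sgBap1. Every sgBap1 liver was below every NTC liver (log2 fold change −0.91, SE 0.12, adjusted P = 0.0208 with Veh and −0.65, SE 0.10, adjusted P = 0.0295 with CCl4, edgeR quasi-likelihood test), and Bap1 RNA remained in all of them. DESeq2's Wald test made both calls as well (adjusted P = 2.65e-07 with Veh and 4.54e-06 with CCl4). The edgeR calls depended on single livers. With Veh the call was lost when any 1 of the 4 Veh livers was left out (−0.84 to −0.99), which leaves 1 liver in a group. The CCl4 call was lost without NTC-CCl4 replicate 1, 2 or 3, sgBap1-CCl4 replicate 1 or either NTC-Veh liver (−0.57 to −0.67, adjusted P 0.0555 to 0.148). The summed level of 6 hepatocyte markers was 65000 to 137000 CPM across the 10 livers, against 134 to 809 CPM for 9 leukocyte markers. The livers therefore carried the markers of their labelled tissue. In sgBap1-CCl4 replicate 2, 5 fat cell markers summed to 289 CPM against 0.565 to 15.4 CPM in the other livers. Without that liver the same members were called in each comparison, and its effect on Ccnd3 and Cdkn2c is given with those genes.

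Promoter sequences are shown for Cdk4 and Ccne1, because Cdk4 was the kinase that rose with CCl4 in both genotypes and Ccne1 was the gene with the largest change among the 10. They come from RefSeq on GRCm38.p6, run 5′ to 3′ on the strand of the gene, and stop before the first annotated exon base. Capitals mark CACGTG, the E-box that Myc and related factors bind, in the Cdk4 promoter, and GGGCGG or its reverse complement CCGCCC, the GC box of the Sp family, in the Ccne1 promoter.
Cdk4, chr10:127063285-127063533, plus strand: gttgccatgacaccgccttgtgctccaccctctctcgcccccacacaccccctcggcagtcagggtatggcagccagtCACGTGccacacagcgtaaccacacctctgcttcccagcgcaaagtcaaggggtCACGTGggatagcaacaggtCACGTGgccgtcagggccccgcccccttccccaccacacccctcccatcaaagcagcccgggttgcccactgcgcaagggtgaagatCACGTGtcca
Ccne1, chr7:38107535-38107740, minus strand: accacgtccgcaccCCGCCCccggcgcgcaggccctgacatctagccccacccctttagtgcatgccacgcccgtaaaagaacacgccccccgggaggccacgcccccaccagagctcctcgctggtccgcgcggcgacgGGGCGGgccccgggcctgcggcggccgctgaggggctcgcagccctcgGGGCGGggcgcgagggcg

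The Cdk4 stretch held 4 E-boxes, which begin 172, 118, 98 and 11 bases upstream of the RefSeq start. Among 32851 mouse promoter windows of the same 300 bases (250 before to 50 after the start), 7.15% held at least 1 E-box and 0.0244%, which is 8 windows, held 4 or more. The Ccne1 window held 4 GC boxes, of which 3 lie within the stretch shown; 5.49% of all windows held 4 or more, and 35.7% held at least 1. Windows were found for 6 of the 10 genes, 8 windows in all: Ccnd3, Ccne1, Cdk4, Cdk6, Cdkn1b and Cdkn2c, with none for Ccnd1, Ccnd2, Ccne2 and Cdkn1c. Of those 8, the windows of Cdk6 and of the downstream start of Cdkn2c also held 1 E-box each. The E2F forms TTTCCCGC, TTTGGCGC, TTTGCCGC and TTTCGCGC, searched on both strands, were in none of the 8 and in 2.26% of all windows, and the same forms without their leading T were in the upstream Cdkn2c window and in 9.57% of all windows. The E-box reads the same on both strands and was counted once, and a GC box can share bases with an E2F form. A match or its absence describes the letters in the window and nothing more.

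After CCl4, 5 of the 10 genes rose in NTC livers (Ccnd1, Ccnd2, Ccne1, Ccne2 and Cdk4) and none fell. In sgBap1 livers 6 rose (Ccnd2, Ccnd3, Ccne1, Ccne2, Cdk4 and Cdk6) and Cdkn1c fell. The count called, at an adjusted P under 0.05 by the edgeR quasi-likelihood test over all 17015 genes, was thus 5 of 10 in NTC and 7 of 10 in sgBap1, against a background of 53.9% and 57% of all genes. Calls upward made up 27.4% and 29% of all genes, and calls downward 26.6% and 28%. At an unadjusted P under 0.05 there were 5 and 8 of the 10 (59.1% and 61.7% of all genes), and the Veh and CCl4 livers did not overlap for 8 and 9 of the 10 (71.7% and 72.2%). The median log2 fold change of the 10 was 0.44 in either genotype, and over all genes it was 0.03 in NTC and 0.04 in sgBap1. The 3 cyclins Ccnd2, Ccne1 and Ccne2 had the largest rises in both genotypes. These counts take TMM scaling, which sets the bulk of genes to little change; scaled by library size alone, the median of all genes was 0.50 in NTC and 0.52 in sgBap1, and 9 of the 10 genes were called in either genotype.

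Markers of the cell types in the lobe also moved with CCl4. The 6 hepatocyte markers summed to 111000 to 137000 CPM in the NTC-Veh pair and 99900 to 105000 CPM in the sgBap1-Veh pair; after the toxin the sums were 70300 to 80200 CPM in NTC livers and 65000 to 83400 CPM in sgBap1 livers, and 4 of the 6 fell in NTC and 2 in sgBap1. The 6 stellate cell markers summed to 114 to 149 CPM over the Veh livers, and after CCl4 to 244 to 322 CPM in NTC and 218 to 582 CPM in sgBap1. Of these, 4 rose and 1 fell in NTC, and 3 rose and 1 fell in sgBap1. The sum of 582 CPM came from sgBap1-CCl4 replicate 2, in which Col1a1 alone measured 402 CPM. The 5 bile duct markers summed to 43.2 to 51.4 CPM over the Veh livers, and to 192 to 248 CPM in NTC and 272 to 370 CPM in sgBap1 after CCl4, with 2 of the 5 called higher in each. Spp1 made up most of these sums, with means of 199 CPM in NTC-CCl4 and 316 CPM in sgBap1-CCl4. Krt7, Krt19 and Epcam stayed between 0.436 and 3.92 CPM over all livers, so the sum mainly follows Spp1. The 6 endothelial markers summed to 149 to 213 CPM over the Veh livers, and to 197 to 243 CPM in NTC and 204 to 239 CPM in sgBap1 after CCl4, with 3 called higher in each and 2 lower in sgBap1. No gene of these 4 lists was at 0 in all livers of a group, and their part in the results of the 10 genes was not tested. The leukocyte markers are given with Ccnd2.

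**Figure D1:**
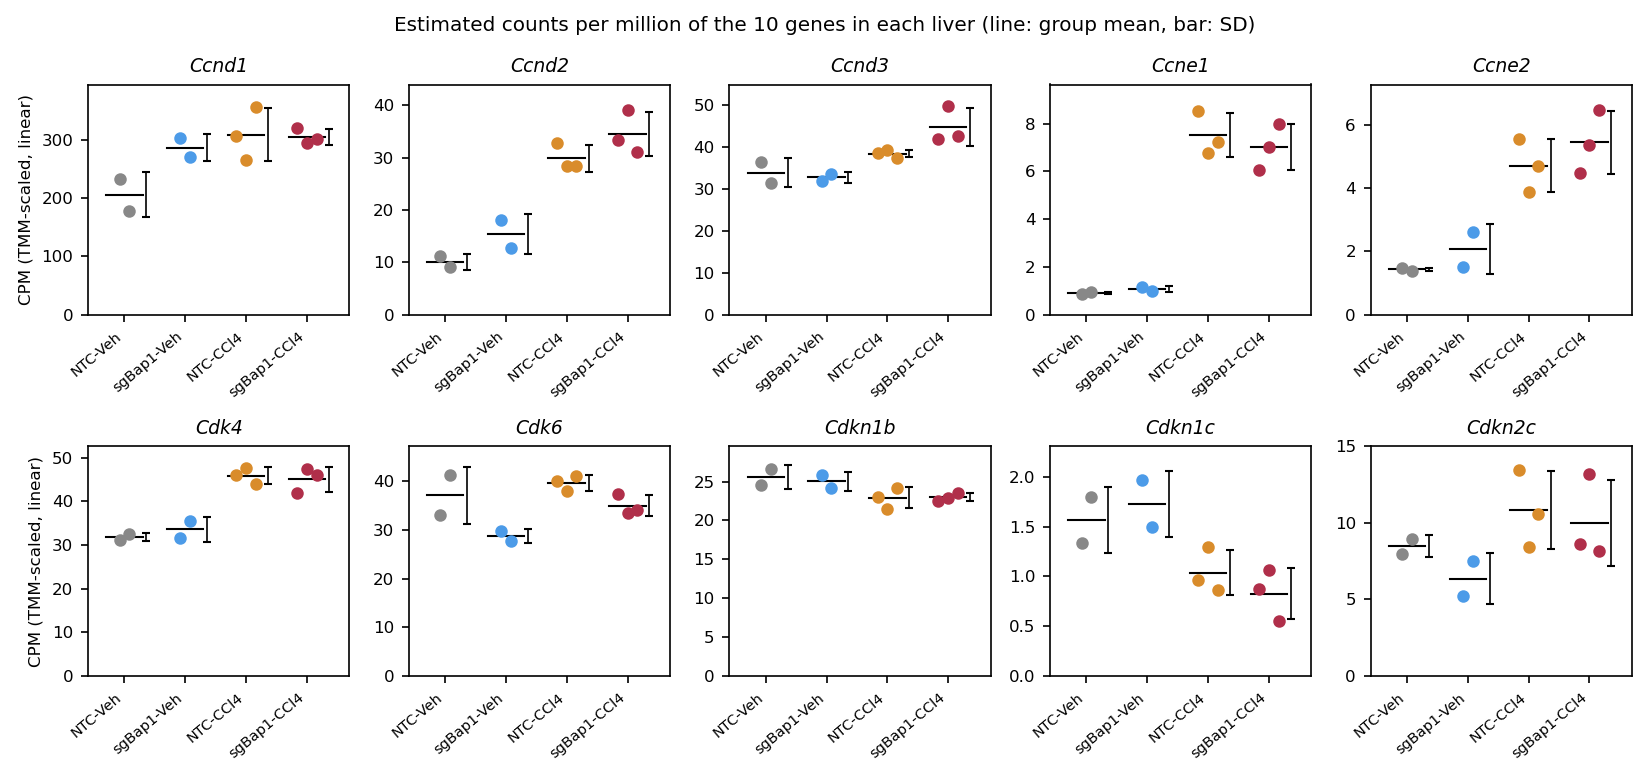
CPM after TMM scaling on a linear axis from 0 for each of the 10 genes (panels) in each liver (points), by group, with the group mean as a line and the SD as a bar (n = 2 with Veh, n = 3 with CCl4). Ccnd2, Ccnd3, Ccne1, Ccne2 and Cdk4 are higher in every CCl4 liver than in every Veh liver, whereas Ccnd1 is lower in the 2 NTC-Veh livers than in all others.

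Ccnd1 (cyclin D1, chr7:144929931-144939925, minus strand) measured 233 and 179 CPM in the NTC-Veh livers and 304 and 271 CPM in the sgBap1-Veh livers. With CCl4 it measured 307, 265 and 357 CPM in NTC livers and 321, 295 and 301 CPM in sgBap1 livers. The 2 NTC-Veh livers were the lowest of the 10, and the sgBap1-Veh livers lay within the range of the NTC-CCl4 livers. In NTC livers CCl4 raised Ccnd1 1.5-fold (log2 fold change 0.59, SE 0.15, adjusted P = 0.00763), and the call rested on NTC-Veh replicate 2, without which the log2 fold change was 0.41 at an adjusted P of 0.0878. In sgBap1 livers the log2 fold change was 0.09 (SE 0.15, adjusted P = 0.63), with a 95% interval from −0.24 to 0.42. Under scaling by library size alone the sgBap1 value was 0.57 and was called (adjusted P = 0.00594, edgeR quasi-likelihood test).

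Ccnd2 (cyclin D2, chr6:127125162-127152193, minus strand) measured 11.2 and 9.01 CPM in NTC-Veh, 18.1 and 12.8 CPM in sgBap1-Veh, 32.9, 28.4 and 28.4 CPM in NTC-CCl4 and 33.4, 39.2 and 31.1 CPM in sgBap1-CCl4. It had the largest rise of the D cyclins, and every CCl4 liver was above every Veh liver. The rise was 2.96-fold in NTC (log2 1.57, SE 0.17, adjusted P = 3.87e-05) and 2.24-fold in sgBap1 (log2 1.16, SE 0.17, adjusted P = 0.000218). The leukocyte markers summed to 134 to 192 CPM in the NTC-Veh livers and 272 to 360 CPM in the sgBap1-Veh livers. Under CCl4 the sums reached 606 to 780 CPM in NTC livers and 600 to 809 CPM in sgBap1 livers, which overlap. Lyz2 was the largest part, with means of 408 CPM in NTC-CCl4 and 420 CPM in sgBap1-CCl4. The group means of Lyz2, Cd68, Itgam and S100a8 had the order of those of Ccnd2. Those of Ptprc, Adgre1, Clec4f, Cd3e and Cd79a did not. The order was not particular to leukocyte markers. The endothelial markers Pecam1, Cdh5 and Lyve1 and the stellate markers Des and Col1a1 had it too. Kdr, Stab2 and Clec4g of the endothelial list and Lrat, Reln, Colec11 and Pdgfrb of the stellate list did not. Of the 9 leukocyte markers, 6 rose with CCl4 in NTC livers, and in sgBap1 livers 5 rose and 1 fell. None of the 9 was at 0 in any group, and their part in the Ccnd2 result was not tested.

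Ccnd3 (cyclin D3, chr17:47505051-47599691, plus strand) measured 36.3 and 31.4 CPM in NTC-Veh, 31.8 and 33.6 CPM in sgBap1-Veh, 38.6, 39.2 and 37.4 CPM in NTC-CCl4 and 41.8, 49.9 and 42.6 CPM in sgBap1-CCl4. Both CCl4 groups lay above their Veh group with no overlap, a pattern that 36.7% of all genes showed upward in NTC and 37.3% in sgBap1. The difference passed the test in sgBap1 livers (1.37-fold, log2 0.45, SE 0.10, adjusted P = 0.00324) and did not in NTC livers (log2 0.18, SE 0.10, adjusted P = 0.15). The difference between these responses was 0.27 (SE 0.14, adjusted P = 0.564), so a genotype difference in the Ccnd3 response was not shown. The highest value of the 10 came from sgBap1-CCl4 replicate 2, the liver with the high fat cell markers, and over the fits that left out 1 liver each the sgBap1 value ran from 0.37 to 0.50 and stayed past the threshold.

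The E cyclins had the largest and the second-largest rise in NTC livers. Ccne1 (cyclin E1, chr7:38097984-38107534, minus strand) measured 0.871 and 0.942 CPM in NTC-Veh and 1.16 and 0.973 CPM in sgBap1-Veh. With CCl4 it measured 8.55, 6.76 and 7.24 CPM in NTC and 6.08, 7.04 and 7.99 CPM in sgBap1. The Veh values rest on 26 to 43 estimated counts per liver and the CCl4 values on 278 to 411. Every CCl4 liver was above every Veh liver, and the rise was 8.27-fold in NTC (log2 3.05, SE 0.21, adjusted P = 2.64e-06) and 6.53-fold in sgBap1 (log2 2.71, SE 0.21, adjusted P = 4.02e-06).

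Ccne2 (cyclin E2, chr4:11191351-11204779, plus strand) measured 1.47 and 1.39 CPM in NTC-Veh and 1.51 and 2.62 CPM in sgBap1-Veh. With CCl4 it measured 5.56, 3.87 and 4.71 CPM in NTC and 4.50, 5.38 and 6.48 CPM in sgBap1. The CCl4 livers were again above all Veh livers, although sgBap1-Veh replicate 2 stood above the other 3 Veh livers. The rise was 3.29-fold in NTC (log2 1.72, SE 0.28, adjusted P = 0.000474) and 2.69-fold in sgBap1 (log2 1.43, SE 0.27, adjusted P = 0.00118).

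The ratio of the Ccne1 count to the Ccne2 count needs no scaling between livers; it is not corrected for the length of the genes, so it compares livers and does not rank the levels of the E cyclins. It was 0.593 to 0.680 in NTC-Veh and 0.371 to 0.768 in sgBap1-Veh. With CCl4 it was 1.54 to 1.75 in NTC and 1.23 to 1.35 in sgBap1. Every CCl4 liver thus had a higher ratio than every Veh liver, and the 2 CCl4 groups did not overlap, with all NTC-CCl4 ratios above all sgBap1-CCl4 ratios. Of all single genes, 20.3% did not overlap between these 2 CCl4 groups, and no such share was taken for ratios. Neither E cyclin was called between genotypes. The ratios are given as descriptions, without a test.

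**Figure D2:**
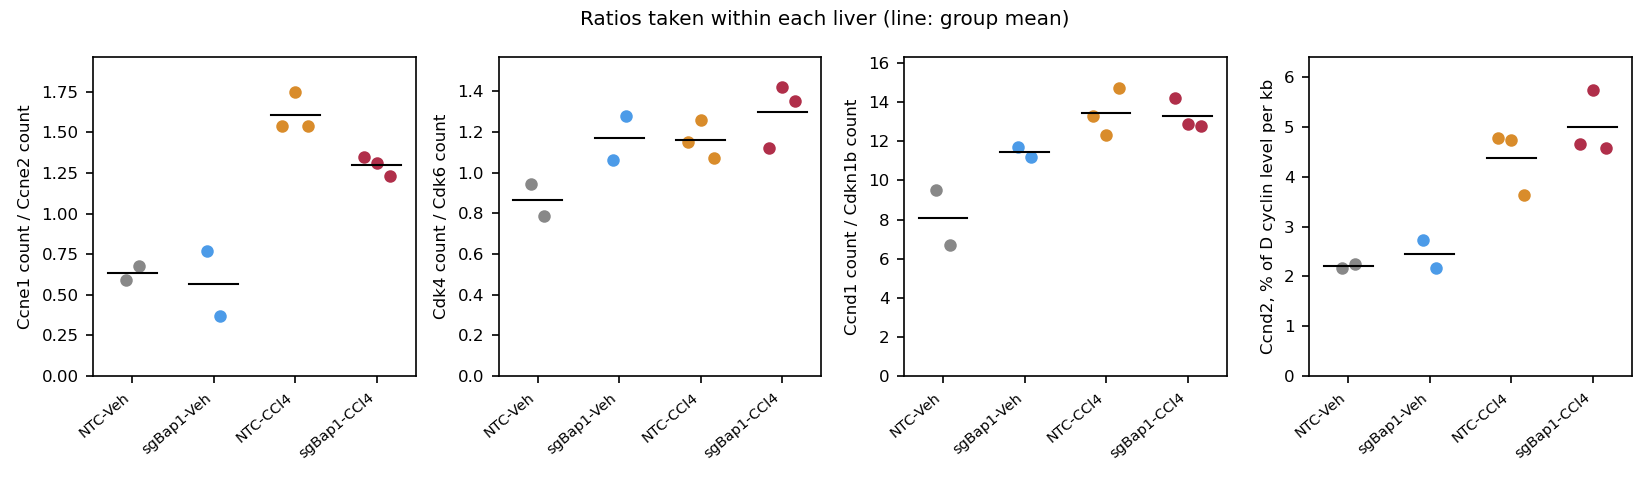
Ratios of estimated counts, or the percent of the summed D cyclin level per kb, on linear axes from 0, each taken within a liver (points) and shown by group with the group mean as a line. The Ccne1 to Ccne2 ratio is below 1 in all 4 Veh livers and above 1 in all 6 CCl4 livers, and the Ccnd1 to Cdkn1b ratio is lowest in the 2 NTC-Veh livers.

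Of the kinases, Cdk4 (chr10:127063534-127067920, plus strand) measured 31.1 and 32.5 CPM in NTC-Veh, 31.6 and 35.6 CPM in sgBap1-Veh, 46.1, 47.8 and 43.9 CPM in NTC-CCl4 and 41.9, 47.3 and 46.1 CPM in sgBap1-CCl4. The Veh and CCl4 livers did not overlap in either genotype. The rise was small against its E cyclin counterparts and tight between livers: 1.44-fold in NTC (log2 0.53, SE 0.09, adjusted P = 0.000621) and 1.34-fold in sgBap1 (log2 0.43, SE 0.09, adjusted P = 0.00227). Myc, whose product binds the E-box shown in capitals in the Cdk4 promoter, rose in both genotypes as well, by 1.12 on the log2 scale in NTC (SE 0.35, adjusted P = 0.0252) and by 2.86 in sgBap1 (SE 0.39, adjusted P = 0.000333). Whether the 2 changes are linked was not tested.

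Cdk6 (chr5:3341485-3531008, plus strand) measured 33.0 and 41.3 CPM in NTC-Veh, 29.9 and 27.8 CPM in sgBap1-Veh, 40.1, 38.0 and 41.2 CPM in NTC-CCl4 and 37.4, 33.4 and 34.0 CPM in sgBap1-CCl4. The 2 sgBap1-Veh livers were the lowest of the 10, and the 2 NTC-Veh livers spanned the range of both CCl4 groups. CCl4 gave a log2 fold change of 0.10 in NTC (SE 0.10, adjusted P = 0.459) and 0.28 in sgBap1 (SE 0.11, adjusted P = 0.0439). The sgBap1 call stood close to the threshold and did not hold with DESeq2's size factors (adjusted P = 0.0525), with DESeq2's Wald test (adjusted P = 0.0574) or in 7 of the 10 fits that left out 1 liver each, including those without sgBap1-Veh replicate 1 (adjusted P = 0.0783) and sgBap1-Veh replicate 2 (adjusted P = 0.203).

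The count ratio of Cdk4 to Cdk6 was 0.787 to 0.942 in NTC-Veh and above 1 in all 8 other livers, at 1.06 to 1.28 in the sgBap1-Veh pair, 1.07 to 1.26 after CCl4 in NTC livers and 1.12 to 1.42 after CCl4 in sgBap1 livers. Counts grow with transcript length, so this ratio compares livers and not the levels of the 2 kinases.

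Among the inhibitors only Cdkn1c was called with CCl4, and only in sgBap1 livers. Cdkn1b (p27, chr6:134920401-134925513, plus strand) measured 24.5 and 26.7 CPM in NTC-Veh, 25.9 and 24.1 CPM in sgBap1-Veh, 23.0, 21.5 and 24.2 CPM in NTC-CCl4 and 22.6, 22.9 and 23.5 CPM in sgBap1-CCl4. It varied least of the 10, with an SD of log2 CPM of 0.09 over the 10 livers. Its CCl4 livers were below its Veh livers in each genotype, as were those of 35% of all genes in NTC and 34.9% in sgBap1, but neither difference passed the test (log2 −0.16, SE 0.09, adjusted P = 0.138 in NTC and −0.12, SE 0.09, adjusted P = 0.247 in sgBap1). Under scaling by library size alone the sign turned, to 0.31 in NTC (adjusted P = 0.0322) and 0.36 in sgBap1 (adjusted P = 0.0168), so no direction is given for Cdkn1b.

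Cdkn1c (p57, an imprinted gene expressed from the maternal allele, chr7:143458339-143461050, minus strand) measured 1.33 and 1.80 CPM in NTC-Veh, 1.97 and 1.497 CPM in sgBap1-Veh, 0.959, 1.30 and 0.859 CPM in NTC-CCl4 and 0.868, 1.06 and 0.553 CPM in sgBap1-CCl4. These values rest on 26 to 73 estimated counts per liver. All CCl4 livers were below all Veh livers, but the difference passed the test only in sgBap1 (2.08-fold lower, log2 −1.06, SE 0.31, adjusted P = 0.014), against −0.58 (SE 0.31, adjusted P = 0.138) in NTC. The sgBap1 call was lost without sgBap1-Veh replicate 1 (−0.84, adjusted P = 0.138) and under scaling by library size alone (−0.57, adjusted P = 0.162). The responses differed by −0.48 (SE 0.44, adjusted P = 0.776), which does not separate the genotypes.

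Cdkn2c (p18, chr4:109660876-109667189, minus strand) measured 7.98 and 8.98 CPM in NTC-Veh, 5.19 and 7.52 CPM in sgBap1-Veh, 13.5, 8.42 and 10.6 CPM in NTC-CCl4 and 8.63, 13.2 and 8.14 CPM in sgBap1-CCl4. The CCl4 livers of each genotype were spread widely, and in NTC they overlapped the Veh livers. The log2 fold change was 0.35 in NTC (SE 0.26, adjusted P = 0.284) and 0.66 in sgBap1 (SE 0.27, adjusted P = 0.0588). The sgBap1 difference passed the threshold with DESeq2's Wald test (0.64, adjusted P = 0.0382) and in 4 of the 10 fits that left out 1 liver each. Over those 10 fits it ran from 0.41 to 0.95 with adjusted P from 0.0382 to 0.337. Without sgBap1-CCl4 replicate 2, the liver with the high fat cell markers and the highest of its group, it was 0.41 (adjusted P = 0.167), and without sgBap1-Veh replicate 1, the lowest of the 10, it was also 0.41 (adjusted P = 0.337).

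**Figure D3:**
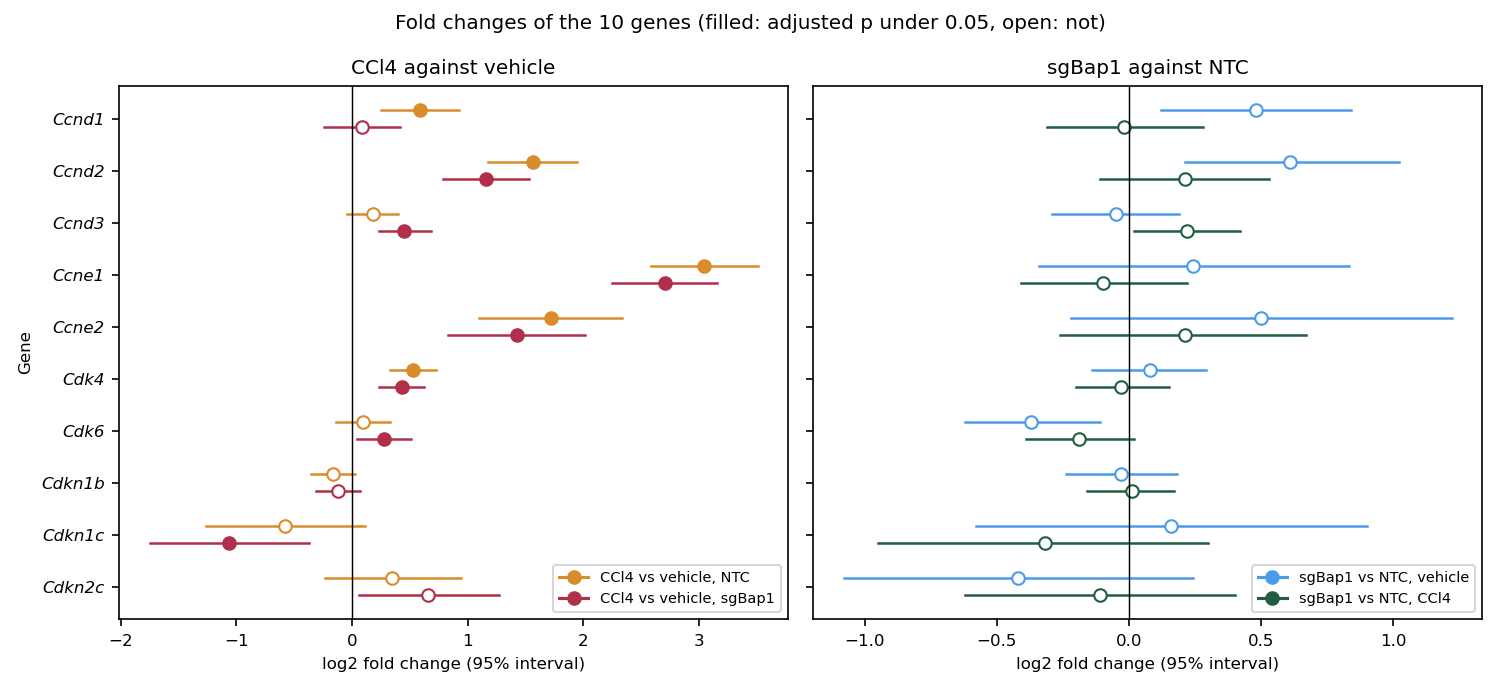
Log2 fold change with its 95% interval for each of the 10 genes, CCl4 against Veh in each genotype (left) and sgBap1 against NTC under each treatment (right), with filled points at an adjusted P under 0.05 and open points otherwise. The filled points are 5 in NTC and 7 in sgBap1 on the left and none on the right.

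Count ratios of a cyclin to an inhibitor within a liver need no scaling between livers. They are not corrected for gene length and take RNA of all cell types. They therefore compare livers and do not give the balance of cyclin and inhibitor. The count of Ccnd1 was 6.70 to 9.50 times that of Cdkn1b in the NTC-Veh pair and 11.2 to 11.7 times in the sgBap1-Veh pair. After CCl4 it was 12.3 to 14.7 times in NTC livers and 12.8 to 14.2 times in sgBap1 livers. The count of Ccne1 was 0.0353 to 0.0355 times that of Cdkn1b in NTC-Veh and 0.0403 to 0.0447 times in sgBap1-Veh, and it was 0.299 to 0.372 times with CCl4 in NTC and 0.269 to 0.34 times in sgBap1. Both ratios were higher in all CCl4 livers than in all Veh livers. Both were also higher in the sgBap1-Veh livers than in the NTC-Veh livers, which are 2 against 2. Of all single genes, 40.9% did not overlap between these Veh groups.

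Dividing by merged exon length puts the levels of different genes on a common scale, CPM per kb. In NTC-Veh livers Ccnd1 led with 43.7 ± 8.20 CPM per kb (SD, n = 2), followed by Cdk4 at 9.79 ± 0.302, Cdkn1b at 5.62 ± 0.330, Ccnd3 at 3.86 ± 0.392, Cdkn2c at 3.16 ± 0.264 and Cdk6 at 2.66 ± 0.418. Ccnd2 at 1.07 ± 0.164, Cdkn1c at 0.769 ± 0.162, Ccne2 at 0.409 ± 0.0171 and Ccne1 at 0.341 ± 0.0188 CPM per kb closed the order, and no neighbours in it overlapped between the 2 livers. In sgBap1-Veh livers the order was the same, but Cdkn2c overlapped Cdk6, Cdkn1c overlapped Ccne2, and Ccne2 overlapped Ccne1.

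With CCl4 the order changed at its lower end. Ccne1 moved from place 10 to place 8 in NTC (2.82 ± 0.348 CPM per kb, n = 3), where it overlapped Cdk6 (2.84 ± 0.119), and to place 7 in sgBap1 (2.64 ± 0.359), where it again overlapped Cdk6 (2.50 ± 0.154). Cdkn1c became the lowest of the 10 in both genotypes, at 0.509 ± 0.112 CPM per kb in NTC and 0.406 ± 0.126 in sgBap1. Ccnd2 moved from place 7 to place 6, at 3.18 ± 0.274 CPM per kb in NTC and 3.67 ± 0.444 in sgBap1, and overlapped Cdkn2c in both. In sgBap1-CCl4 Ccnd3 (5.10 ± 0.506) also passed Cdkn1b (5.05 ± 0.108), which it overlapped. The order depends on the length chosen: with the longest annotated transcript in place of merged exons, Ccnd3 in NTC-Veh stood at 8.78 CPM per kb, above Cdkn1b at 5.62, and the other 8 genes kept their order.

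**Figure D4:**
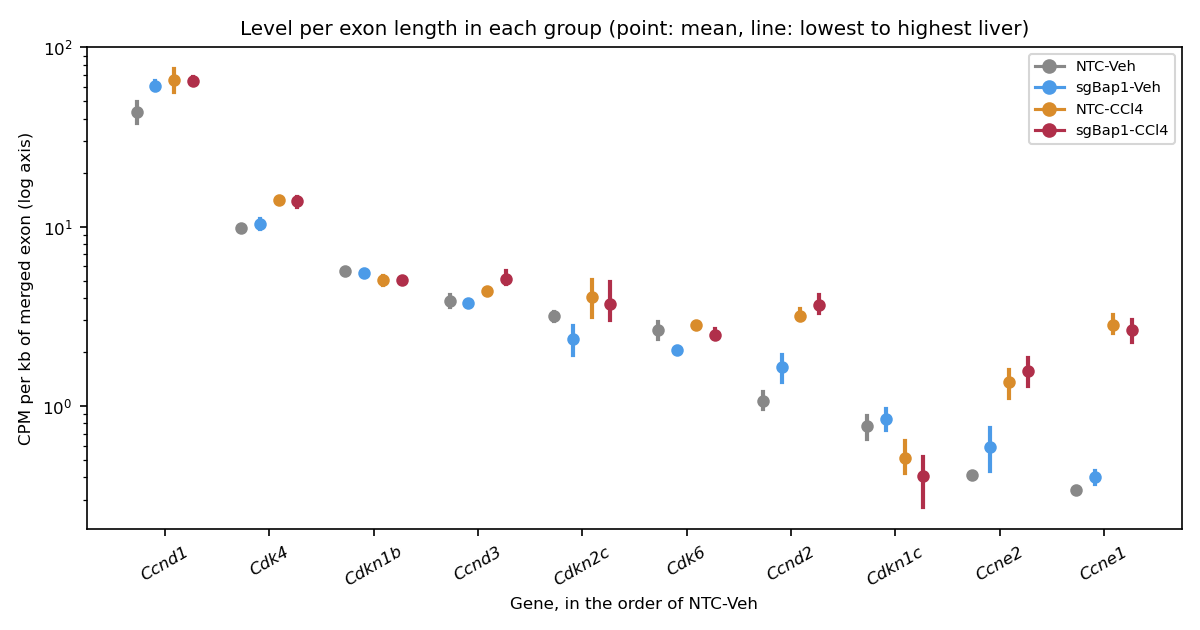
CPM per kb of merged exon on a log axis for the 10 genes, ordered by their NTC-Veh mean, with the group mean as a point and a line from the lowest to the highest liver (n = 2 with Veh, n = 3 with CCl4). Ccnd1 is highest in every group, and Ccne1 moves from 0.341 CPM per kb in NTC-Veh to 2.82 in NTC-CCl4 while Cdkn1c becomes the lowest.

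Ccnd1 made up most of the D cyclin level in every liver. Its share of the summed CPM per kb of the 3 D cyclins was 89.3% to 90.3% in the NTC-Veh pair and 91.7% to 92.1% in the sgBap1-Veh pair. After CCl4 it was 88.3% to 91.2% in NTC livers and 86.4% to 89.1% in sgBap1 livers. The Ccnd2 share was 2.17% to 2.25%, 2.16% to 2.74%, 3.64% to 4.78% and 4.58% to 5.75% in the same order of groups, so every CCl4 liver was above every Veh liver. The sum of the 3 was lowest in NTC-Veh, at 42.5 to 54.8 CPM per kb, against 62.7 to 83.1 in the other livers. These shares and sums use merged exons and depend on the length chosen. With the longest annotated transcript the NTC-Veh means were 55 CPM per kb for Ccnd1, 8.78 for Ccnd3 and 1.6 for Ccnd2.

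Between genotypes, none of the 10 genes was called under either treatment. The background was 0.406% of all genes (69 genes) with Veh and 0.329% (56 genes) with CCl4, so a count of 0 among 10 does not set these genes apart from the rest. At an unadjusted P under 0.05 there were 3 of 10 with Veh, against 12.3% of all genes, and 1 of 10 with CCl4, against 14%. DESeq2's Wald test called none of the 10 in either comparison, although it called 562 and 509 genes in all.

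With Veh, the 3 genes were Ccnd1 (1.4-fold higher in sgBap1, log2 0.48, SE 0.16, adjusted P = 0.252), Ccnd2 (1.53-fold higher, log2 0.61, SE 0.18, adjusted P = 0.186) and Cdk6 (1.29-fold lower, log2 −0.37, SE 0.12, adjusted P = 0.214), all from the edgeR quasi-likelihood test. None passed the correction. The livers of the 2 genotypes did not overlap for 6 of the 10, against 40.9% of all genes. The sgBap1-Veh livers were both above both NTC-Veh livers for Ccnd1, Ccnd2, Ccne1 and Ccne2 (background 21.7%) and both below for Cdk6 and Cdkn2c (background 19.2%). For Ccne1 and Ccne2 the log2 differences were 0.24 (SE 0.26) and 0.50 (SE 0.32), each within 2 SE of 0, and for Cdkn2c it was −0.42 (SE 0.29). The log2 differences of Ccnd3, Cdk4, Cdkn1b and Cdkn1c lay between −0.05 and 0.16. The leukocyte marker sum was also higher in sgBap1-Veh, as given beside Ccnd2, with 1 of the 9 markers called (Ptprc) and log2 differences from 0.41 to 1.23, and its part in these differences was not tested.

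With CCl4, Ccnd3 was 1.17-fold higher in sgBap1 livers (log2 0.22, SE 0.09, adjusted P = 0.298, edgeR quasi-likelihood test), and all 3 sgBap1-CCl4 livers were above all 3 NTC-CCl4 livers (background 10.1%). Cdk6 was lower in all 3, which made 2 of the 10 without overlap against 20.3% of all genes (Cdk6 log2 −0.19, SE 0.09, adjusted P = 0.404; background 10.2%). For Ccnd1 the log2 difference was −0.02 with a 95% interval from −0.31 to 0.28, and for Cdk4 it was −0.03 with an interval from −0.20 to 0.15. These 2 intervals bound the difference more closely than that of Cdkn1c, from −0.95 to 0.30.

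The interaction asks whether CCl4 changed a gene by a different amount in sgBap1 than in NTC livers. None of the 10 genes was called, nor was any of the 17015 genes by the edgeR quasi-likelihood test (background 0%); 1764 genes (10.4%) had an unadjusted P under 0.05, and DESeq2's Wald test called 424 genes in all and none of the 10. Of the 10, Ccnd1 alone had an unadjusted P under 0.05: its CCl4 response was lower in sgBap1 by 0.50 on the log2 scale (value −0.50, SE 0.21, 95% interval −0.97 to −0.03, adjusted P = 0.445). The rise of Ccnd1 in NTC and the absence of a call in sgBap1 are therefore not shown to differ after correction. The other 9 values lay between −0.48 (Cdkn1c) and 0.31 (Cdkn2c). Since each genotype contrast shares livers with the interaction and with the CCl4 contrasts, the values are set side by side and not counted as separate support.

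The rest of the G1 machinery gives the setting of these values. Of 4 other CDK inhibitors, all rose with CCl4 in both genotypes. Cdkn1a (p21), a target of p53, rose by 1.31 in NTC (SE 0.29, adjusted P = 0.00485) and by 3.10 in sgBap1 (SE 0.32, adjusted P = 5.83e-05), and the difference of 1.79 between these responses did not pass the edgeR quasi-likelihood test (SE 0.41, adjusted P = 0.143). DESeq2's Wald test called that difference (1.77, adjusted P = 0.000729), and over the edgeR fits that left out 1 liver each it ran from 1.14 to 2.23 with adjusted P from 0.061 to 0.351. Cdkn2d (p19), a relative of Cdkn2c, rose by 0.99 and 1.16. Cdkn2a and Cdkn2b were called higher from very few counts, with 0 to 4 and 2 to 12 estimated counts per Veh liver and 9 to 24 and 22 to 46 per CCl4 liver, and no fold is given for them. Calls in this list were lost without NTC-Veh replicate 1 in NTC and without sgBap1-Veh replicate 2 in sgBap1. By edgeR the Cdkn2a call in sgBap1 stood at an adjusted P of 0.049. It was lost in several settings, among them DESeq2's size factors (0.0506), DESeq2's Wald test (0.0565) and the replicate block (0.0785). Leaving out any sgBap1-CCl4 liver also lost it (0.0673 to 0.0842). In NTC the Cdkn2a call was lost with the replicate block (0.0631) and without NTC-CCl4 replicate 3 (0.0761). It was also lost without NTC-Veh replicate 1 or 2, which leaves 1 liver in that group.

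Of 13 pocket proteins, E2Fs and partners, 8 rose and 2 fell in NTC livers and 9 rose and 2 fell in sgBap1 livers (median 0.62 and 0.66). E2f1, an activator of S phase genes, rose by 2.65 in NTC (SE 0.17, adjusted P = 2.14e-06) and 2.47 in sgBap1 (SE 0.16, adjusted P = 2.10e-06). E2f2 rose by 2.93 and 2.19. The pocket protein Rbl1 (p107) rose by 2.36 and 1.89 while Rbl2 (p130), the form that prevails in resting cells, fell by 1.09 and 1.17. The genes that fell were thus Rbl2 and Tfdp2 in both genotypes.

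Of 9 later cyclins, kinases and activators, 6 rose in each genotype, and Ccnh fell in sgBap1 (log2 −0.43, SE 0.13, adjusted P = 0.0144). Ccna2 (cyclin A2), which follows cyclin E in S phase, rose by 5.06 on the log2 scale in NTC (SE 0.30, adjusted P = 2.15e-06) and 4.32 in sgBap1 (SE 0.28, adjusted P = 2.76e-06). Cdk2, the kinase partner of the E cyclins, rose by only 0.30 (SE 0.09, adjusted P = 0.0174) and 0.42 (SE 0.09, adjusted P = 0.00274). Cdk1 rose by 5.54 and 4.42. Of 13 S phase genes, 12 rose in each genotype, with medians of 2.64 and 2.20, and all 6 mitosis genes rose in both, with medians of 5.18 and 4.67. The median of the 10 genes, 0.44, was below those of the S phase and mitosis lists.

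Of 11 genes for the turnover of cyclins D and E and of p27, 3 rose and 3 fell in NTC livers and 5 rose and 3 fell in sgBap1 livers (median 0.04 and 0.17). Skp2 and Cks1b, the receptor and cofactor of the ubiquitin ligase that marks p27 for degradation, rose by 1.69 (SE 0.18, adjusted P = 3.10e-05) and 2.38 (SE 0.20, adjusted P = 7.65e-06) in NTC and by 1.61 and 1.98 in sgBap1. Other parts of that ligase did not follow them. The mean of Skp1 (Skp1a in the matrix) was 195 CPM in NTC-Veh, 119 in NTC-CCl4, 197 in sgBap1-Veh and 118 in sgBap1-CCl4. Group means ran from 54.1 to 59.4 CPM for Cul1 and from 35.4 to 38.7 CPM for Rbx1. Fbxo31, a receptor for cyclin D1 degradation, fell by 1.86 in NTC (SE 0.15, adjusted P = 5.42e-06) and 1.23 in sgBap1 (SE 0.15, adjusted P = 5.86e-05). Ambra1, another receptor for D cyclins, fell by 0.32 and 0.69. RNA levels do not measure the proteins these ligases act on, and no protein was measured in these files.

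Of 7 upstream transcription factors, 3 rose and 3 fell in NTC livers and 3 rose and 2 fell in sgBap1 livers. The genes that rose in both were Myc, Jun and Foxm1. Jun, part of the AP-1 factor that acts on Ccnd1, rose by 1.90 (SE 0.31, adjusted P = 0.000841) and 2.26 (SE 0.31, adjusted P = 0.000321). Foxo3 and Foxo4, forkhead factors of the group known to raise Cdkn1b, fell by 1.38 and 0.90 in NTC and by 1.48 and 0.94 in sgBap1. Foxo1 fell by 0.73 in NTC (SE 0.12, adjusted P = 0.000601) and measured 0.22 in sgBap1 (SE 0.13, adjusted P = 0.156). With CCl4 Foxo1 was higher in sgBap1 than in NTC livers, at 52.7 ± 1.86 against 29.0 ± 3.55 CPM (SD, n = 3), by 0.86 on the log2 scale (SE 0.11, adjusted P = 0.0189), and by the edgeR test it was the only gene of the 7 lists called between genotypes. That call was lost when NTC-CCl4 replicate 1, 2 or 3 or sgBap1-CCl4 replicate 1 was left out.

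**Figure D5:**
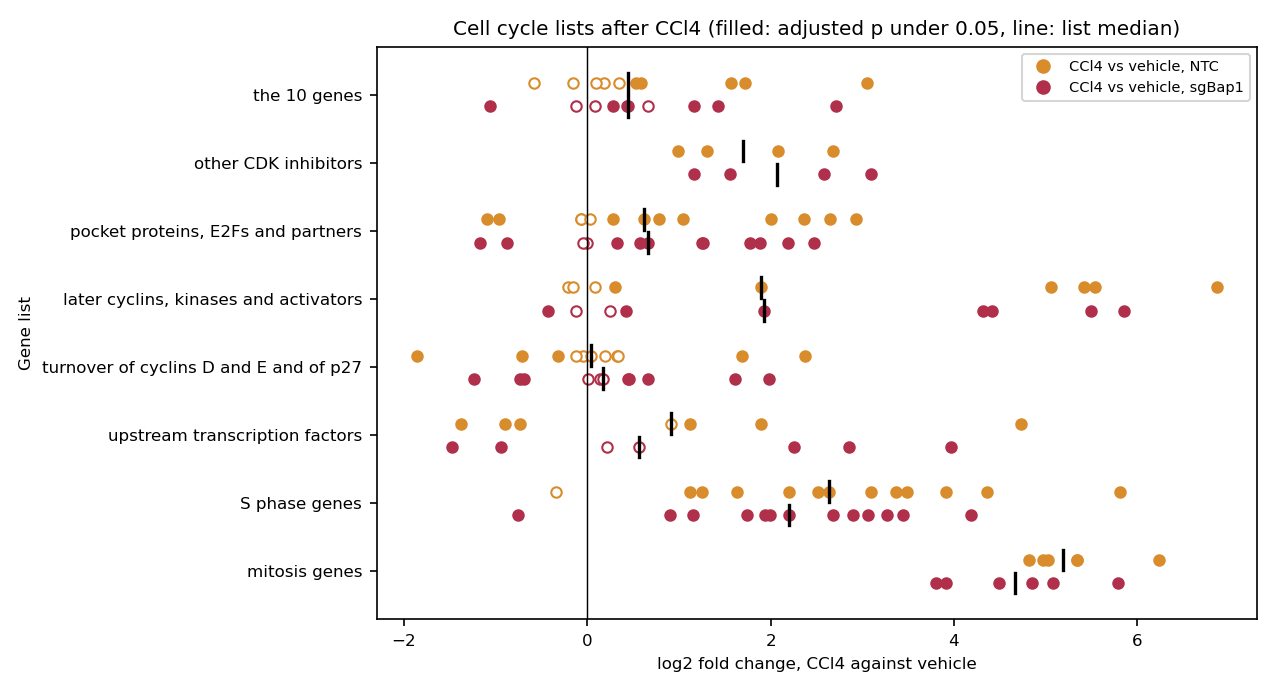
Log2 fold change with CCl4 against Veh for each gene (points) of the 10 genes and of 7 cell cycle lists (rows) in NTC and sgBap1 livers, with filled points at an adjusted P under 0.05 and the list median as a black line. The median of the 10 genes is 0.44 in either genotype, against 5.18 in NTC and 4.67 in sgBap1 for the 6 mitosis genes.

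Over 12027 genes that averaged 100 counts or more, those whose log2 CPM over the 10 livers followed a member most closely were found by the root mean square difference after centring. For Ccne1 they were Ncapg2 (0.118), a condensin subunit, Mcm3 (0.138), a subunit of the replicative helicase, and Pkmyt1 (0.185), a kinase that inhibits Cdk1, against an SD of Ccne1 itself of 1.39. For Ccnd2 they were Ppp1r9b (0.114), Ifi207 (0.115) and Lrrc32 (0.116) against an SD of 0.72. The closest gene to Ccnd1 was Afap1l1 (0.101 against an SD of 0.27), and the closest to Ccne2 was Afap1l2 (0.217 against 0.81). For Cdk4 they were Picalm (0.054), Nip7 (0.057) and Pes1 (0.058), of which the latter pair act in ribosome assembly, against an SD of 0.24. The closest genes were Snx11 (0.057 against 0.19) for Ccnd3, Malt1 (0.066 against 0.19) for Cdk6, Atad1 (0.041 against 0.09) for Cdkn1b, Fut8 (0.190 against 0.38) for Cdkn2c and Tcf21 (0.173 against 0.50) for Cdkn1c. None of the 10 was among the 3 closest genes of another, and none of these distances carries a test. Cdkn1c averaged under 100 counts and was not a candidate, so it could not have been found close to another member.

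Several of the genes overlap another gene on the opposite strand. The share of their 50-base stretches that also occurs in a gene of the other strand was 24.9% for Cdkn1c, 21.6% for Ccnd1 (LTO1), 17% for Cdk4 (Tspan31), 14.4% for Ccne2 (Ints8), 6.31% for Ccnd2, 3.84% for Ccnd3 (Bysl) and 2.64% for Cdk6, and 0% for Ccne1, Cdkn1b and Cdkn2c. The kit marks strand, but whether the counting used it is not given in the sources used here, so those values may include reads of the partner. On the same strand, 1.99% of Ccnd3 stretches were shared with its pseudogene Ccnd3-ps.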

How the data were processed

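RNA from the right lobe of 10 livers was sequenced by the authors with the TruSeq stranded mRNA kit in paired reads of 50 bases. Per the submitters' processing notes the reads were aligned with STAR 2.7.6a to GRCm38 and quantified with Salmon 1.4.0, on GENCODE vM25. The deposited matrix holds Salmon's estimated counts per gene as the authors made them, not normalized, of which 9.22% were not whole; they were rounded here. Salmon's library type setting is not given in the sources used here. Groups came from the sample labels.

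One model of the 4 groups was fitted with edgeR 4.0.16 in R 4.3.3 (filterByExpr by group, TMM, robust quasi-likelihood), which left 17015 genes, and P-values were adjusted by Benjamini-Hochberg over all of them, with calls at 0.05. The SE is the absolute log2 fold change divided by the square root of F. TMM factors were 0.786 to 0.851 in the Veh livers and 1.08 to 1.24 in the CCl4 livers. Total counts of 33050000 to 52200000 per liver set the precision, and a floor of 3 counts covers counting error only. Log2 CPM took a prior count of 2. Exon lengths and positions came from GENCODE vM21 and promoters from RefSeq, both on GRCm38. Within a group the mean chi-square between the counts of 2 livers was 15.5 to 90.1, more than sampling noise, so none was counted as a library deposited again. This does not show that livers are separate mice, which no label says, and P-values measure only the spread between these samples, which may be technical.

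The names in the text are all 10 members, Bap1, the genes of 7 pathway and 6 marker lists, and the 3 genes most like each member. Members and lists were chosen with earlier results of these data known. Alternatives were other scaling, other filters, library size alone, a replicate block, DESeq2 1.42.0, an older edgeR fit, only the groups compared, and leaving out each liver. The fit was tested on simulated data. The deviations of same-numbered livers from their group means had r from −0.149 to 0.102 over 13 pairs.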

Additional observations from a re-analysis of the deposited data

How the results depend on the processing

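The members called for CCl4 in NTC livers were 5 under each alternative except scaling by library size alone, which gave 9, and 4 to 5 when each liver was left out in turn. In sgBap1 livers the 7 calls became 9 by library size alone, 6 with DESeq2's size factors and 5 to 7 with a liver left out. Library size alone put the median of all genes at 0.50 and 0.52 for CCl4 and made 80.5% and 78.3% of calls upward, against 50.8% and 50.9% with TMM, and Cdkn1b then reversed to 0.31 in NTC and 0.36 in sgBap1. That scaling also added calls of Ccnd3, Cdk6 and Cdkn2c in NTC. In sgBap1 it added Ccnd1 and Cdkn2c and lost Cdkn1c. The genotype and interaction counts of members were 0 under every alternative. Same-numbered livers correlated above 0.1 in 2 of 13 pairs. In a group of 2 the deviations from the mean mirror each other, so the 13 values are not separate. They do not settle whether the numbers pair the samples. With the replicate block, 5 members were called in NTC and 6 in sgBap1, where Cdk6 was lost (0.28, adjusted P = 0.1), 0 in either genotype comparison and 0 for the interaction, and the block changed no other call of a member. Values of uncalled members that changed sign when a liver was left out ran from −0.05 to 0.27 for Cdk6 with CCl4 in NTC. For sgBap1 against NTC with Veh they ran from −0.15 to 0.06 for Ccnd3, −0.01 to 0.16 for Cdk4, −0.09 to 0.03 for Cdkn1b and −0.07 to 0.39 for Cdkn1c. With CCl4 they ran from −0.12 to 0.10 for Ccnd1, −0.21 to 0.01 for Ccne1, −0.06 to 0.02 for Cdk4, −0.04 to 0.05 for Cdkn1b and −0.37 to 0.08 for Cdkn2c, and for the interaction from −0.67 to 0.13 for Ccne2 and −0.02 to 0.10 for Cdkn1b. The causes were not tested.

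Counts over all genes moved more between genotypes. With Veh the 69 calls became 32 by library size alone, 1 with the replicate block, 562 with DESeq2, 19 with only the groups compared and 0 to 150 with a liver left out (0 without NTC-Veh replicate 2, 150 without sgBap1-CCl4 replicate 2). With CCl4 the 56 calls became 94 without the filter, 24 with the replicate block, 509 with DESeq2 and 28 with only the groups compared, and as few as 1 with a liver left out (NTC-CCl4 replicate 1); 60.7% of them were upward, and 50% by library size alone. For the interaction the 0 calls became 2 by library size alone, 34 without the filter, 424 with DESeq2 and up to 7 with a liver left out (sgBap1-CCl4 replicate 2). Bap1 itself was not called by library size alone, with the replicate block or with only the groups compared, at adjusted P of 0.051, 0.0744 and 0.0542 with Veh and 0.0646, 0.0552 and 0.0818 with CCl4. It stayed called under both treatments with DESeq2's size factors, DESeq2's Wald test, the older edgeR fit and either other filter. In the pathway lists DESeq2 called 1 gene each in 5 lists and 2 S phase genes with Veh, against 0, and for the interaction 1 other CDK inhibitor (Cdkn1a), 2 upstream factors and 1 S phase gene; without the filter 1 S phase gene was called with Veh. Ccne1 and Ccne2 with Veh and Cdkn1c in all groups rest on under 100 counts a liver, which limits their precision.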

Other observations

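Tk1, the thymidine kinase of the salvage pathway, was the exception among the 13 S phase genes. It measured 22.7 ± 1.45 CPM in NTC-Veh and 30.3 ± 8.98 CPM in sgBap1-Veh (SD, n = 2), and 17.9 ± 1.95 CPM in NTC-CCl4 and 18.0 ± 2.73 CPM in sgBap1-CCl4 (SD, n = 3). The log2 fold change with CCl4 was −0.34 in NTC livers (SE 0.18, adjusted P = 0.141) and −0.75 in sgBap1 livers (SE 0.18, adjusted P = 0.00519, edgeR quasi-likelihood test), while the other 12 S phase genes rose in both.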
